A study of Mus musculus with 10 samples.

Results

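The genes described are 10 regulators of muscle protein turnover: the ubiquitin ligase genes Fbxo32, Trim63, Trim54, Trim55, Fbxo30 and Fbxo40, the transcription factor genes Foxo1, Foxo3 and Foxo4, and the translation repressor gene Eif4ebp1. They were taken by symbol for their known roles, all 10 were found among the 49315 genes counted, and all 10 passed the filter on low counts. They were measured by poly(A) RNA-seq in the gastrocnemius of 10 male C57BL6J mice, 5 AHRfl and 5 AHRmko, named below by genotype and animal number. AHRfl mice, littermates of the AHRmko mice per the study, carry Ahr alleles flanked by loxP sites and no Cre, while AHRmko mice carry the same alleles and an inducible MerCreMer recombinase under the human skeletal actin promoter, so that tamoxifen deletes exon 2 of Ahr in myofibres and not in the other cells of the muscle. Every mouse had breathed smoke from research cigarettes for 16 weeks, on 5 days per week in 2 sessions of 1 h, at 220 ± 80 mg/m3. Exposure began 4 weeks after tamoxifen per the labels, and the muscle was taken 72 h after the last exposure. The study's main text gives a shorter wait after tamoxifen, and for the harvest a range of hours that ends at 72 h. No air-exposed muscle is among the libraries, so the comparison is between genotypes under smoke, and the mice are described as aged, with no age in months in the sources used here.

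Muscle loses mass when proteins are broken down faster than they are made. Ubiquitin ligases select proteins for the proteasome, and Fbxo32 (atrogin-1) and Trim63 (MuRF1) are the ligase genes best known for being induced in wasting muscle. FOXO transcription factors switch on both genes. When insulin or IGF signalling is strong, AKT phosphorylates the FOXO proteins and keeps them out of the nucleus, and mTORC1 phosphorylates the product of Eif4ebp1, which then releases the cap-binding protein eIF4E and allows translation to start. These controls act largely on proteins, which RNA counts do not measure. AHR, the aryl hydrocarbon receptor, is a transcription factor activated by ligands that include compounds of tobacco smoke.

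Libraries held between 30393035 and 37954388 counts, and no 2 of them were identical. Values are CPM, counts relative to the library size after TMM normalisation, and 3 counts, taken as the smallest signal, corresponded to between 0.079 and 0.0987 CPM, a floor that covers counting error only. The muscle identity of the samples was plain, the 6 myofibre markers summing to at least 95647 CPM in every mouse. The 7 markers of slow myofibres differed widely between mice, from 61.5 to 1528 CPM in AHRfl and from 180 to 1860 CPM in AHRmko mice, with AHRfl 12 lowest and AHRmko 8 highest. All 7 had a log2 fold change above 0 (median 0.45), as did the 3 adipocyte (0.45), the 3 erythroid (0.42), the 3 macrophage (0.16) and the 3 endothelial markers (0.14), while the 3 Schwann cell (-0.21) and the 3 fibroblast markers (-0.07) were below 0, and 0 of these 25 had an unadjusted p under 0.05. Xist RNA, which male cells normally lack, was counted 44 to 75 times in 5 libraries (AHRfl 11, 15 and 33, AHRmko 9 and 22) and 0 to 3 times in the others, while every library had at least 282 counts of each Y-linked gene examined. The targeted gene was a weak check of the labels: Ahr had 43 to 110 counts in AHRfl and 31 to 80 in AHRmko mice, and gene counts sum all its exons. Esr1, whose ligand-binding sequence the MerCreMer transgene contains, was counted 544 to 658 times in AHRfl and 9770 to 24975 times in AHRmko mice, which separated the genotypes as labelled. Among 14714 genes tested with edgeR's quasi-likelihood method, it alone passed an adjusted p of 0.05 (Benjamini-Hochberg).

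None of the 10 genes passed that threshold, against 0.0068% of all genes tested, and none did so in the DESeq2 Wald test either, where 0.193% of the 10858 genes given an adjusted p passed. At an unadjusted p under 0.05, 1 of the 10 was counted, Trim55, against 6.61% of the 14714 genes in edgeR and 3.62% of the 31833 genes, low counts included, in DESeq2. Trim55 was also the only one whose genotypes did not overlap, against 1.4% of all genes. The log2 fold changes, AHRmko minus AHRfl, lay between -0.40 for Trim63 and 0.26 for Trim55, with a median of -0.09 and 4 of the 10 above 0. Over all genes the median was 0.01. The 2 ligase genes best known from wasting had lower means in AHRmko muscle, Foxo3, Foxo4, Fbxo40 and Trim55 higher ones, and 9 of the 10 genes had overlapping genotypes. In two-sided exact permutation tests, p for these 9 ran from 0.127 for Foxo3 to 0.690 for Foxo1.

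**Figure D1:**
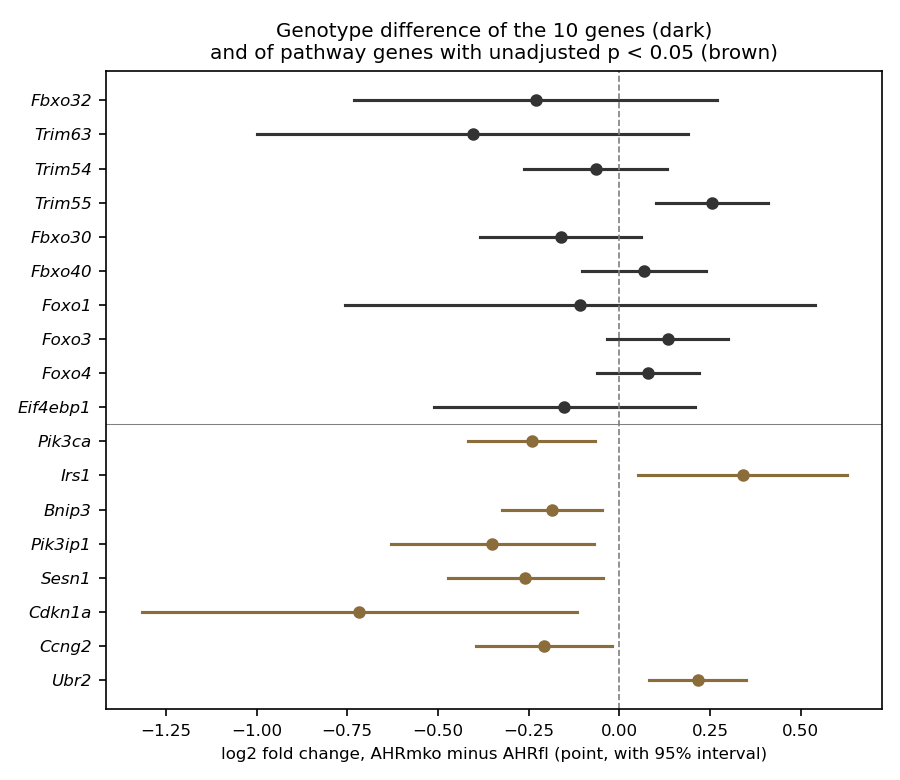
Log2 fold change (horizontal axis, AHRmko minus AHRfl) of each of the 10 genes (dark) and of the 8 genes of the pathway lists with an unadjusted p under 0.05 (brown), with 95% intervals from the edgeR fit of 5 against 5 mice. Among the dark intervals only that of Trim55, from 0.10 to 0.41, lies clear of 0, and the intervals of Foxo1 and Trim63 are the widest.

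Trim55 encodes MuRF2, a RING-type ligase that binds titin and microtubules in the sarcomere. The gene (ENSMUSG00000060913) occupies bases 19644474 to 19692421 of chromosome 3 (GRCm38, plus strand). Trim55 was at 53.2, 63.2, 64.0, 62.5 and 62.2 CPM in AHRfl 11, 12, 13, 15 and 33. In AHRmko 8, 9, 19, 22 and 34 Trim55 was at 66.0, 73.0, 69.4, 75.1 and 80.6 CPM. Every AHRmko mouse was above every AHRfl mouse, the closest being AHRmko 8 and AHRfl 13, and AHRfl 11 stood below the other 4 AHRfl mice. The means of Trim55 were 61.0 ± 4.43 CPM in AHRfl and 72.8 ± 5.58 CPM in AHRmko muscle (SD, n = 5 each). The fold was 1.19 (0.26 ± 0.0715 SE on the log2 scale, 95% interval 0.10 to 0.41). The two-sided exact permutation test gave p = 0.00794, the smallest that 5 mice against 5 allow. Of all genes, 0.686% were separated in the same direction. Adjusted over all genes, p was 0.606 in edgeR and 0.218 in the DESeq2 Wald test, so that Trim55 was not called by either. The estimate was 0.21 without AHRfl 11, 0.29 without AHRmko 8 and 0.31 without the 4 libraries of highest slow-fibre signal. Without the 5 libraries with Xist counts it was 0.18, with an unadjusted edgeR p of 0.188, and 2 AHRfl and 3 AHRmko mice remained.

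**Figure D2:**
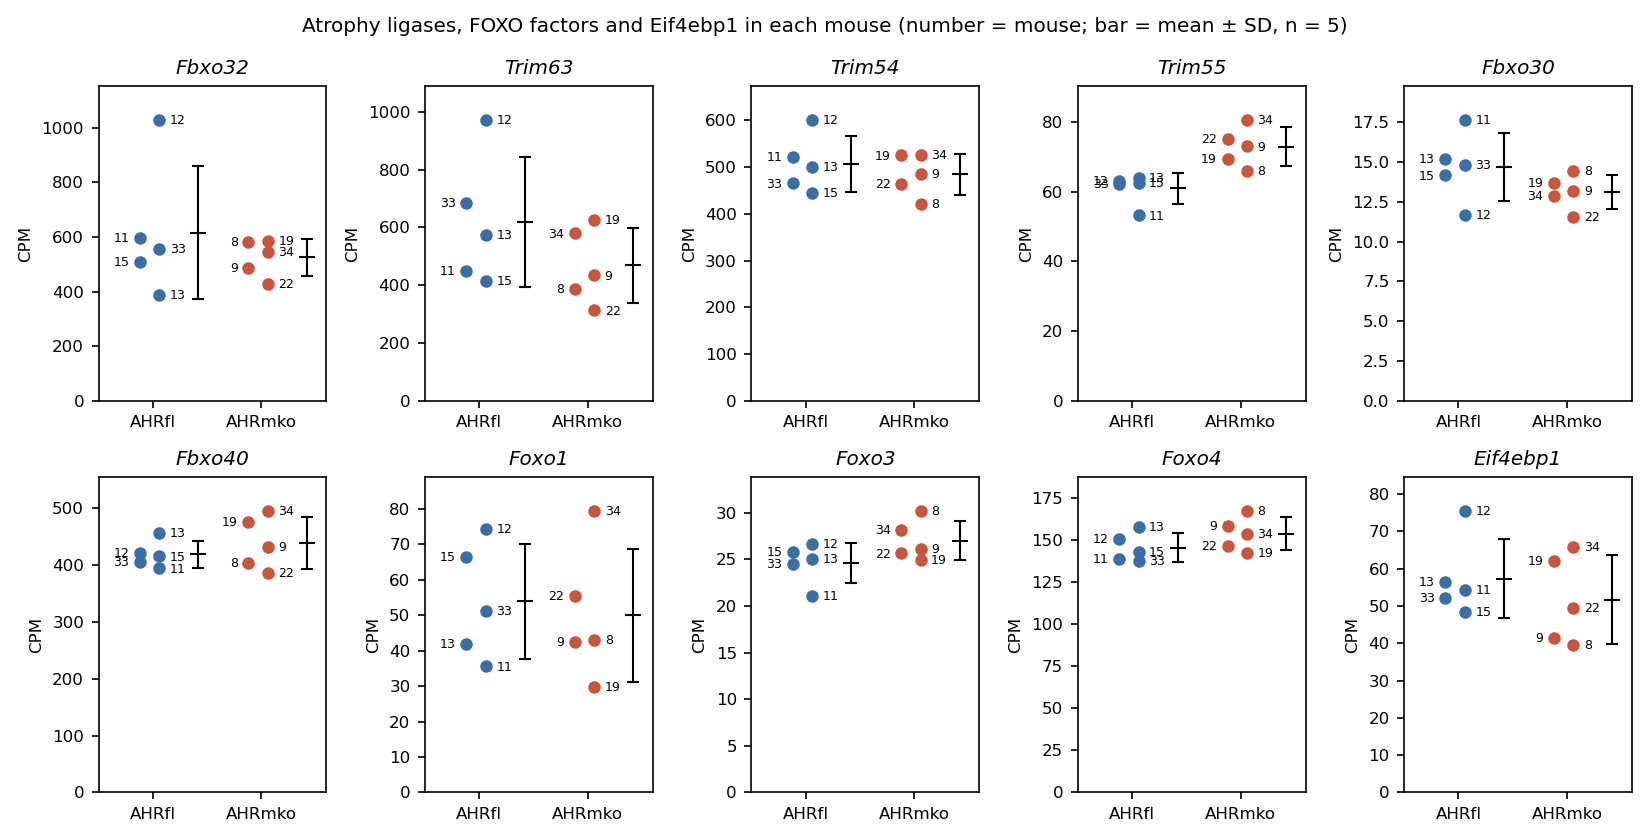
CPM (vertical axis, from 0) of each gene in the 5 AHRfl mice (blue) and the 5 AHRmko mice (red), numbered by animal, with the mean ± SD of each genotype in black. Trim55 is the only panel in which the red points all lie above the blue ones, and AHRfl 12 is the highest mouse in Fbxo32 and Trim63, at 1029.8 and 972 CPM.

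Fbxo32 encodes atrogin-1, the F-box protein that brings substrates such as MyoD to an SCF-type ligase. It lies on the minus strand of chromosome 15 (ENSMUSG00000022358, 58175879 to 58214932). Fbxo32 was at 597, 1029.8, 389, 509.8 and 556 CPM in AHRfl 11, 12, 13, 15 and 33. The AHRmko mice 8, 9, 19, 22 and 34 had 582, 486, 585, 428 and 545 CPM. The AHRmko values all lay inside the AHRfl range, and AHRfl 12 was the highest of all. The means were 616 ± 244 CPM in AHRfl and 525 ± 67.5 CPM (SD, n = 5 each) in AHRmko muscle. The log2 fold change was -0.23 ± 0.226 (SE, 95% interval -0.73 to 0.27, edgeR adjusted p = 0.890). Without AHRfl 12 the log2 fold change was 0.03, so that the direction of the difference rests on that mouse. In GENCODE M21 an exon of Gm15943 on the opposite strand shares 186 nt with Fbxo32, and it was counted 166 to 302 times per library against at least 13788 counts of Fbxo32.

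Trim63 encodes MuRF1, a RING-type ligase of the thick filament and the M band whose substrates include myosin heavy chain. Trim63 (ENSMUSG00000028834) occupies bases 134315120 to 134329629 of chromosome 4 (plus strand). The 250 bases before its start (RefSeq, GRCm38.p6, chr4:134314870-134315119, plus strand) are shown because they hold the FOXO-binding letters GTAAACA. The capitals mark these letters as read from the other strand, 194 to 188 bases before the start, and the letters TATAAA, 31 to 26 bases before it.
Trim63: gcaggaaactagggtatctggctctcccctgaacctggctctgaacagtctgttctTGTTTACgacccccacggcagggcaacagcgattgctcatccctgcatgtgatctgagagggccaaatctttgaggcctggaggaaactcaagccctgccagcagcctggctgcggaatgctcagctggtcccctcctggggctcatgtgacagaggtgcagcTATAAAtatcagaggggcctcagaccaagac
Searched on both strands from 250 bases before the start to 50 after it, GTAAACA was found in 3.65% of 32851 RefSeq promoters and TATAAA in 13.6%. Such a match is a description of the sequence, and binding was not measured. Of the 10 genes, 6 (Trim63, Trim54, Fbxo30, Fbxo40, Foxo1 and Foxo3) had entries in the promoter table, 7 entries in all since Fbxo40 has 2, and Trim63 was the only one of the 7 with either of these motifs.

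Trim63 was at 448, 972, 575, 416 and 685 CPM in AHRfl 11, 12, 13, 15 and 33. In the AHRmko mice 8, 9, 19, 22 and 34 Trim63 was at 389, 434, 627, 313 and 579 CPM. The 3 highest values included AHRfl 12, AHRfl 33 and AHRmko 19 and the 3 lowest AHRmko 22, AHRmko 8 and AHRfl 15, so the genotypes overlapped. The means were 619 ± 224 CPM and 468 ± 131 CPM (SD, n = 5 each). With a log2 fold change of -0.40 ± 0.266 (SE, 95% interval -0.998 to 0.19) the difference was the largest of the 10 genes and was within the spread between mice (two-sided exact permutation test, p = 0.214). Its adjusted p was 0.826 in edgeR. Without AHRfl 12 the log2 fold change was -0.18, and without AHRmko 19 it was -0.53, so that the sign did not turn. With Xist presence in the model it was -0.50, with an unadjusted edgeR p of 0.0399 (adjusted 0.676).

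Trim54 encodes MuRF3, the partner of MuRF1 and MuRF2 that stabilises microtubules in muscle. Trim54 (ENSMUSG00000062077, plus strand of chromosome 5, 31116712 to 31137630) was at 521, 601, 500.4, 445 and 465 CPM in AHRfl 11, 12, 13, 15 and 33. In AHRmko 8, 9, 19, 22 and 34 it was at 422, 485, 525, 464 and 525 CPM. AHRfl 12 was again the highest mouse, and AHRmko 8 the lowest. The log2 fold change of Trim54 was -0.07 ± 0.0914 (SE, 95% interval -0.26 to 0.13, edgeR adjusted p = 0.932) and 0.00 without AHRfl 12. An exon of Gm15469 on the opposite strand shares 382 nt with it and was counted 640 to 1090 times, against at least 15039 counts of Trim54. The 3 MuRF genes did not move in 1 direction between genotypes, with lower AHRmko means in Trim63 and Trim54 and a higher one in Trim55.

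Fbxo30 (MUSA1) is an F-box ligase gene held down by BMP signalling, and Fbxo40 is a muscle-restricted F-box gene whose product targets the insulin receptor substrate IRS1. Fbxo30 (ENSMUSG00000047648, plus strand of chromosome 10, 11281330 to 11298052) was at 17.7, 11.7, 15.2, 14.2 and 14.8 CPM in AHRfl 11, 12, 13, 15 and 33 and between 11.5 and 14.4 CPM in AHRmko mice. AHRfl 11 was its highest mouse and AHRmko 22 its lowest. The log2 fold change of Fbxo30 was -0.16 ± 0.103 (SE, 95% interval -0.38 to 0.06, edgeR adjusted p = 0.819). It was -0.09 without AHRfl 11 and -0.23 without AHRfl 12, the latter with an unadjusted edgeR p of 0.0212 (adjusted 0.688). Without the 5 libraries with Xist counts it was 0.03, which leaves 2 AHRfl and 3 AHRmko mice. Fbxo40 (ENSMUSG00000047746, minus strand of chromosome 16, 36963460 to 36990467) was between 394 and 456 CPM in AHRfl and between 386 and 494 CPM in AHRmko mice. The AHRmko range enclosed the AHRfl range. Its log2 fold change was 0.07 ± 0.0794 (SE, 95% interval -0.10 to 0.24, edgeR adjusted p = 0.916), 0.02 without AHRmko 34 and 0.11 without AHRmko 22.

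Foxo1, Foxo3 and Foxo4 encode the forkhead factors that AKT restrains, and each can drive Fbxo32 and Trim63 when it enters the nucleus. Foxo1 (ENSMUSG00000044167, plus strand of chromosome 3, 52268336 to 52353221) was at 35.6, 74.3, 42.0, 66.6 and 51.2 CPM in AHRfl 11, 12, 13, 15 and 33. In AHRmko 8, 9, 19, 22 and 34 Foxo1 was at 43.2, 42.4, 29.8, 55.5 and 79.4 CPM. Both the highest and the lowest mouse, AHRmko 34 and AHRmko 19, were AHRmko. The means of Foxo1 were 53.9 ± 16.3 CPM and 50.04 ± 18.8 CPM (SD, n = 5 each), and the log2 fold change was -0.11 ± 0.288 (SE, edgeR adjusted p = 0.971). The 95% interval of Foxo1, from -0.76 to 0.54, was the widest of the 10 genes. Its sign rested on single mice, the log2 fold change being 0.04 without AHRfl 12, 0.04 without AHRmko 19 and -0.34 without AHRmko 34. An exon of Gm20402 on the opposite strand shares 674 nt with Foxo1 and had 0 counts in every library.

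Foxo3 (ENSMUSG00000048756, minus strand of chromosome 10, 42181841 to 42276755) was at 21.1, 26.6, 25.1, 25.8 and 24.5 CPM in AHRfl 11, 12, 13, 15 and 33. Its values were 30.2, 26.2, 25.0, 25.6 and 28.1 CPM in AHRmko 8, 9, 19, 22 and 34. AHRmko 8 and AHRmko 34 were above every AHRfl mouse, and the other 3 AHRmko mice were within the AHRfl range. The log2 fold change of Foxo3 was 0.13 ± 0.0776 (SE, 95% interval -0.03 to 0.30, edgeR adjusted p = 0.811). Foxo4 (ENSMUSG00000042903, plus strand of chromosome X, 101254528 to 101260873) was between 138 and 158 CPM in AHRfl and between 142 and 167 CPM in AHRmko mice. Its log2 fold change was 0.08 ± 0.0653 (SE, 95% interval -0.06 to 0.22, edgeR adjusted p = 0.867), and AHRmko 8 and AHRmko 9 were its highest mice. AHRmko 8 was thus the highest mouse in Foxo3 and in Foxo4, and no sign changed in either gene when any mouse was left out. The log2 fold change of Foxo3 was 0.08 without AHRfl 11, and that of Foxo4 was 0.05 without AHRmko 8 and 0.00497 without the 5 libraries with Xist counts.

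Because the genotypes differ in AHR, the promoters were also searched for GCGTG, the core of the sequence bound by AHR with its partner ARNT, on both strands. Of the 7 entries 3 held it, those of Fbxo30, Foxo1 and Foxo3, where 32.4% of 32851 promoters of the same length did. The stretches are printed 5′ to 3′ on the strand of each gene (RefSeq, GRCm38.p6), with the core in capitals, as CACGC where it lies on the other strand. They run from chr10:11281386-11281430 for Fbxo30, chr3:52268087-52268114 for Foxo1 and chr10:42276797-42276859 for Foxo3, and the last 2 cores of Foxo3 share a base. RefSeq starts Fbxo30 downstream of the GENCODE start given above, so that its core lies inside the gene as GENCODE M21 bounds it.
Fbxo30: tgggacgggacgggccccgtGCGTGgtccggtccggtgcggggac
Foxo1: ctcCACGCcggtttgcctcctagcaatc
Foxo3: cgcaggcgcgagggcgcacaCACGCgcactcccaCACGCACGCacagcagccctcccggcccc
The log2 fold changes of these 3 genes, -0.16, -0.11 and 0.13, are those given above, and the 3 genes whose entries lack the core are Trim63, Trim54 and Fbxo40. Occupancy by AHR was not measured.

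Eif4ebp1 encodes 4E-BP1, which blocks cap-dependent translation by holding eIF4E. Eif4ebp1 (ENSMUSG00000031490, plus strand of chromosome 8, 27260329 to 27276674) was at 54.3, 75.4, 56.4, 48.4 and 52.1 CPM in AHRfl 11, 12, 13, 15 and 33. In AHRmko 8, 9, 19, 22 and 34 it was at 39.4, 41.3, 62.0, 49.5 and 65.8 CPM. The AHRmko mice fell on either side of most AHRfl mice, with AHRmko 8 and 9 below all of them and AHRmko 19 and 34 above 4 of them. The log2 fold change was -0.15 ± 0.163 (SE, 95% interval -0.51 to 0.21, edgeR adjusted p = 0.904). It was -0.03 without AHRfl 12 and -0.25 without AHRmko 34.

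Per length, 4 of the 6 ligase genes were the most abundant of the 10, and the ligase gene Fbxo30 was the least abundant. Levels of different genes are compared as TPM, counts divided by merged exon length and scaled to the same total in each mouse, averaged over all 10 mice. Trim54 was highest at 828 ± 68.1 TPM (SD, n = 10), above Trim63 at 458 ± 152 TPM in all 10 mice. Fbxo32 and Fbxo40 followed at 197 and 187 TPM and did not differ in order beyond their spread, Fbxo32 being the higher in 4 of 10 mice. Foxo4 at 103 TPM was the most abundant FOXO gene. Trim55 and Eif4ebp1 were alike at 60.6 and 59.4 TPM, with Trim55 the higher in 5 of 10 mice. These were AHRfl 15 and AHRmko 8, 9, 22 and 34, and a difference in this order between genotypes was not tested. Trim55 and Eif4ebp1 were close in AHRfl 33, at 57.6 and 58.4 TPM, and in AHRmko 34, at 71.6 and 70.8 TPM. The other 2 FOXO genes were low, Foxo1 at 14.4 and Foxo3 at 8.21 TPM, and Fbxo30 was lowest at 6.45 TPM, below Foxo3 in 9 of 10 mice. Every other neighbour in this order kept its place in all 10 mice. In bulk muscle RNA, a lower share of myofibres and less RNA per myofibre cannot be told apart.

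**Figure D3:**
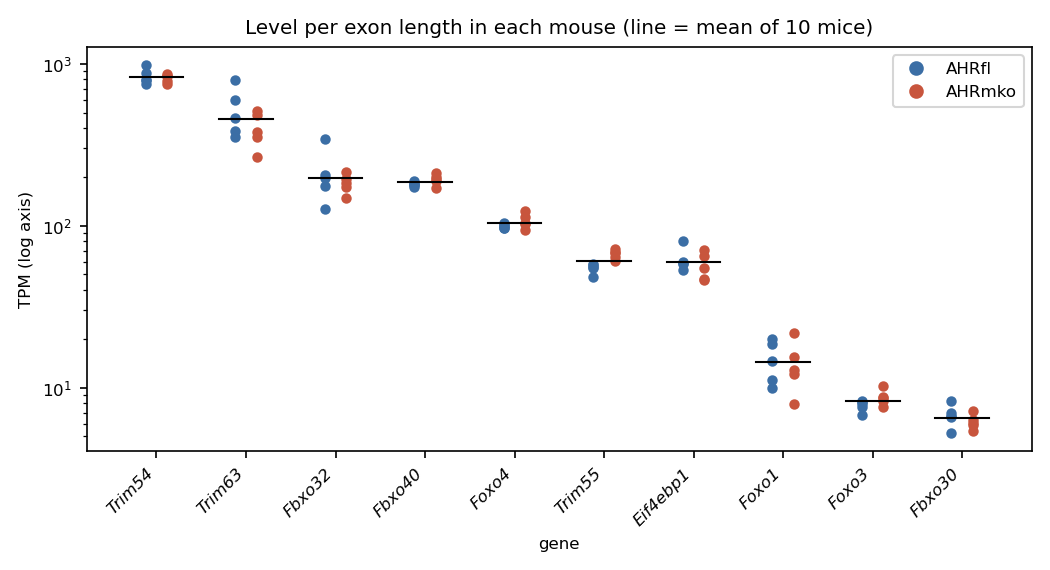
TPM (log axis) of each gene in the 5 AHRfl mice (blue) and the 5 AHRmko mice (red), ordered by the mean of all 10 mice (black line). The order runs from Trim54 at 828 TPM to Fbxo30 at 6.45 TPM.

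The 10 genes varied unequally from mouse to mouse. Highest mouse over lowest was 3.11 for Trim63, 2.66 for Foxo1 and 2.65 for Fbxo32, where the median of all 14714 genes was 1.61. Without AHRfl 12 the ratio of Fbxo32 was 1.54, under the median of 1.56 for all genes in the same 9 mice, while those of Trim63 and Foxo1 were 2.19 and 2.66. The biological coefficient of variation in the edgeR fit was 0.314 for Foxo1, 0.292 for Trim63 and 0.253 for Fbxo32, against a median of 0.151, and without AHRfl 12 it was 0.311, 0.238 and 0.149 against a median of 0.149. Foxo4 was the steadiest, with a ratio of 1.21 and a coefficient of 0.103. By ratio Fbxo40 followed with 1.28, but its coefficient of 0.115 was above those of Trim55 and Foxo3. Trim55 and Foxo3 had coefficients of 0.106 each, and Trim55 varied by 7.27% (CV) within AHRfl and by 7.66% within AHRmko mice, and by 1.25% within AHRfl mice without AHRfl 11. In Fbxo32 the CV was 39.6% in AHRfl and 12.8% in AHRmko mice, and AHRfl 12 was the highest AHRfl mouse, its gap to the next being 0.56 of the range, under Dixon's critical value of 0.71. Without AHRfl 12 the CV of Fbxo32 in AHRfl mice was 17.6%.

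The 10 genes were compared with each other from mouse to mouse. Over the 45 pairs, 7 had a permutation p under 0.05 for Pearson's r of log2 CPM before adjustment. The share of such pairs among all genes was not computed, so the count cannot be read as a trait of these genes. After adjustment over the 45 pairs, 0 passed for r and 1 for Spearman's rho. That pair was Trim54 and Eif4ebp1, with r = 0.88 (permutation p = 0.00124, adjusted 0.0558) and rho = 0.92 (permutation p = 0.00059, adjusted 0.0265) over 10 mice. The relation was as strong after each genotype's mean was subtracted (r = 0.87). It was 0.80 without AHRfl 12 and 0.68 without AHRfl 12 and AHRmko 8, the 2 mice farthest from the median of Trim54. The number of pairs past the adjusted threshold for r was 1 without AHRmko 9.

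The other 6 pairs did not pass the adjustment. Trim63 and Eif4ebp1 had r = 0.77 and rho = 0.78 (permutation p = 0.00931 and 0.0104, adjusted 0.140 and 0.156), r = 0.73 without AHRfl 12 and AHRmko 22, and r = 0.62 without AHRfl 12. Foxo3 and Foxo4 had r = 0.75 and rho = 0.79 (permutation p = 0.00876 and 0.00906, adjusted 0.140 and 0.156), and r = 0.52 without AHRfl 11 and AHRmko 8. Trim63 and Trim54 had r = 0.74 and rho = 0.76 (permutation p = 0.0150 and 0.0147, adjusted 0.169 and 0.166), and r = 0.51 without AHRfl 12. Trim55 and Fbxo30 ran in opposite directions, with r = -0.72 and rho = -0.70 (permutation p = 0.0195 and 0.0302, adjusted 0.176 and 0.272), and r = -0.52 without AHRmko 34 and AHRfl 11. The classical pair, Fbxo32 and Trim63, had r = 0.66 and rho = 0.50 (permutation p = 0.0400 and 0.146, adjusted 0.3004 and 0.468), r = 0.64 after each genotype's mean was subtracted, r = 0.60 without AHRfl 12 and AHRfl 13, and r = 0.23 without AHRfl 12 alone. Trim55 and Foxo3 had r = 0.63 and rho = 0.54 (permutation p = 0.0498 and 0.114, adjusted 0.320 and 0.433), and r = 0.02 without AHRmko 34 and AHRfl 11. Between the FOXO genes and the pair they can drive, Fbxo32 and Trim63, r was 0.28 and 0.21 for Foxo1, 0.08 and -0.04 for Foxo3 and -0.11 and -0.17 for Foxo4. None of these 6 had a permutation p under 0.05. Without AHRfl 12 they were -0.19 and -0.14 for Foxo1, -0.05 and -0.17 for Foxo3 and -0.28 and -0.26 for Foxo4. Nuclear FOXO protein was not measured.

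**Figure D4:**
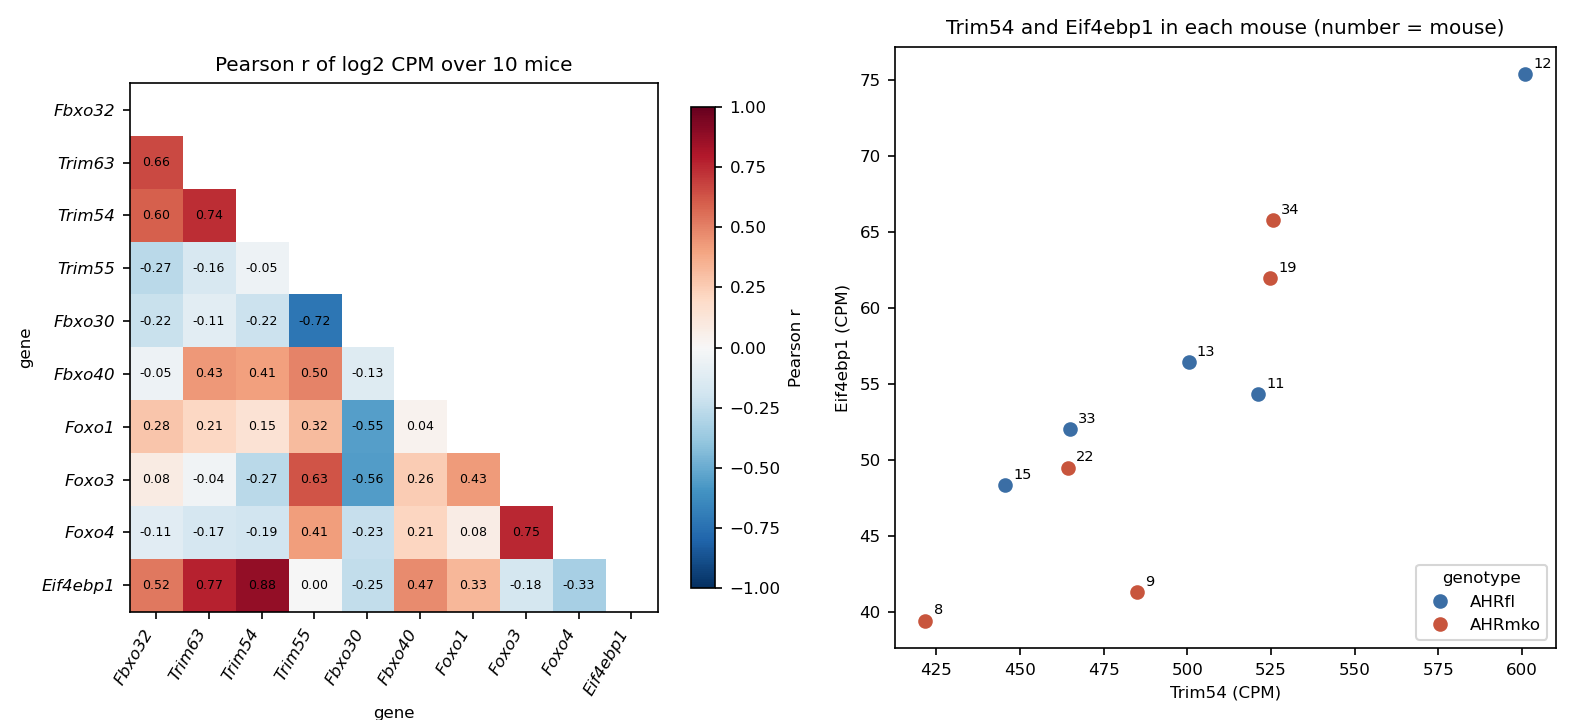
Left, Pearson's r (colour scale from -1 to 1, value in each cell) of log2 CPM over the 10 mice for each of the 45 pairs of genes. Right, CPM of Eif4ebp1 against CPM of Trim54 in each mouse, AHRfl in blue and AHRmko in red, where AHRfl 12 is at the upper right and AHRmko 8 at the lower left (r = 0.88 on the log2 scale).

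Of the 10 genes, Trim54 was the 1 whose level moved with the slow-fibre content of the samples past the adjusted threshold for r, though not for rho. A slow-fibre score, the mean log2 CPM of the 7 slow myofibre markers, ran from 1.66 in AHRfl 12 to 7.32 in AHRmko 8 and was related to Trim54 with r = -0.83 and rho = -0.78 over 10 mice (permutation p = 0.0022 and 0.0107, adjusted over the 10 genes 0.0220 and 0.107). How many of all genes had such an r with the score was not computed, so the relation cannot be called particular to Trim54. Without the mice at both ends of the score, r for Trim54 was -0.68. The other 9 genes had adjusted p of 0.3696 or more for r, with r = -0.57 for Trim63, -0.54 for Eif4ebp1 and -0.35 for Fbxo32, and without the same 2 mice these were -0.22, -0.08 and 0.10. CPM are divided by the TMM factor of each library, so a negative correlation with that factor is partly built in, and the r of the 10 genes with it are given as a description. They were lowest for Trim54 (r = -0.77, and -0.77 without AHRfl 33 and AHRfl 12, the 2 mice with the most extreme factors), Eif4ebp1 (-0.73 and -0.82) and Fbxo40 (-0.68 and -0.86). Between the score and the factor themselves r was 0.66 and rho 0.64 (permutation p = 0.0441 and 0.0550), and r was 0.46 without 2 mice. Their part in the relation between Trim54 and Eif4ebp1 was not tested. With the slow-fibre score in the model, the log2 fold change of Trim54 between genotypes was 0.00, that of Trim63 was -0.28, that of Fbxo32 -0.13 and that of Eif4ebp1 -0.06.

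**Figure D5:**
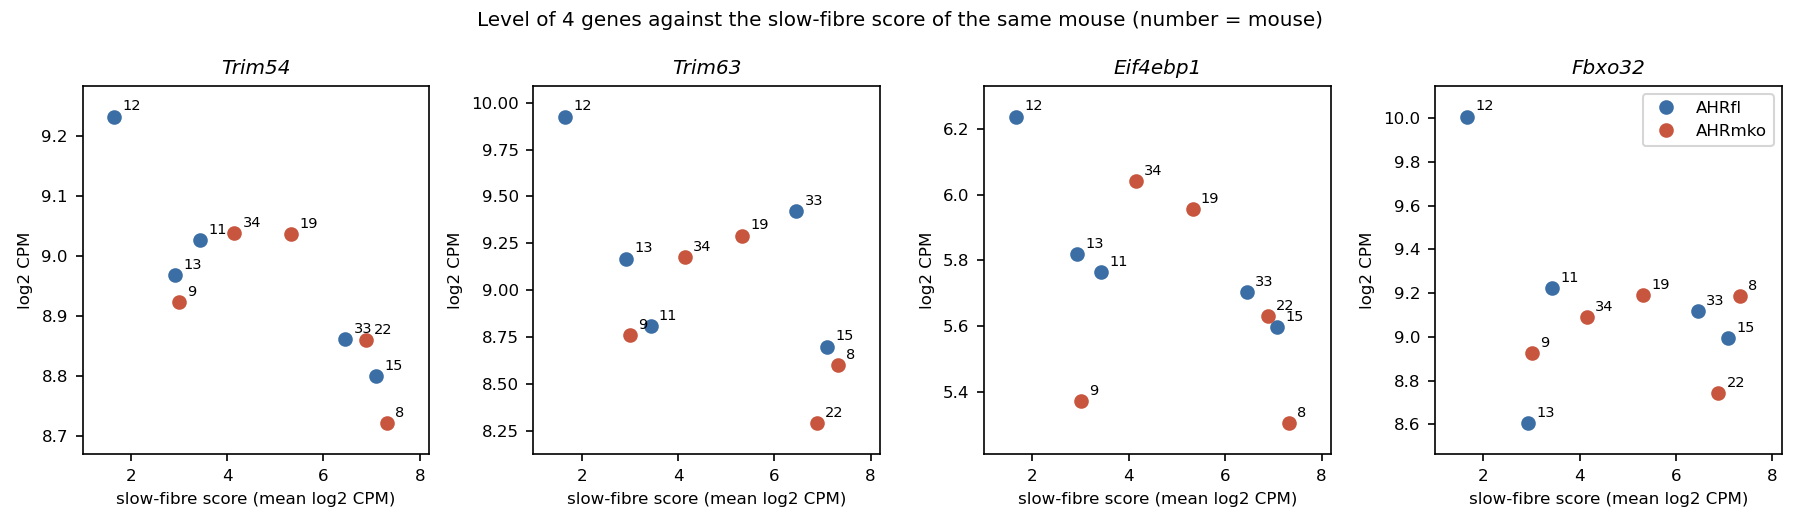
Log2 CPM (vertical axes, which do not start at 0) of Trim54, Trim63, Eif4ebp1 and Fbxo32 against the slow-fibre score of the same mouse (horizontal axes, mean log2 CPM of 7 markers), AHRfl in blue and AHRmko in red, numbered by animal. Trim54 runs downwards with the score (r = -0.83), and AHRfl 12, with the lowest score of 1.66, is the highest mouse in all 4 panels.

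Upstream of the FOXO factors, 26 genes of insulin, AKT and mTOR signalling were tested, and 0 passed an adjusted p of 0.05 with edgeR or DESeq2. Their median log2 fold change was 0.05 (0.02 without AHRmko 34) beside 0.01 for all genes, with 18 of the 26 above 0. The median was 0.0042 without the 5 libraries with Xist counts and 0.012 without the 4 libraries of highest slow-fibre signal. At an unadjusted p under 0.05, 1 was higher in AHRmko muscle and 1 lower in both tests, against 3.23% and 3.38% of all genes in edgeR. Irs1, the receptor substrate that Fbxo40 targets, was at 21.2 ± 3.23 CPM in AHRfl and 26.8 ± 4.86 CPM (SD, n = 5 each) in AHRmko muscle, a log2 fold change of 0.34 ± 0.132 (SE, edgeR adjusted p = 0.683). Pik3ca, the catalytic subunit of the kinase that activates AKT, had a log2 fold change of -0.24 ± 0.0808 (SE, edgeR adjusted p = 0.665). Both genes had overlapping genotypes. The count of 2 was 1 without AHRfl 11, without AHRfl 15, without AHRmko 9 or without AHRmko 34, it was 4 without AHRfl 12, and it was 5 with the slow-fibre score in the model and 0 without the 5 libraries with Xist counts.

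Downstream, 18 genes that FOXO factors are known to activate were tested, of which Irs2 is also among the 26 above. Their median log2 fold change was -0.04 (-0.01 without AHRmko 9 and -0.09 without AHRmko 34), with 11 of the 18 below 0, and 0 had an adjusted p under 0.05 in either tool. At an unadjusted p under 0.05, 5 of the 18 were lower in AHRmko muscle and 0 higher, against 3.38% and 3.23% of all genes. With DESeq2 6 were lower and 0 higher, against 1.83% and 1.79% of its 31833 genes. Those 31833 include low counts that the edgeR filter removed, whereas all 18 passed that filter, so the DESeq2 shares are not a like background. The largest difference was in Cdkn1a, the cell cycle inhibitor p21, at 56.3 ± 10.1 CPM in AHRfl and 34.2 ± 12.5 CPM (SD, n = 5 each) in AHRmko muscle (log2 fold change -0.72 ± 0.267 SE, edgeR adjusted p = 0.683). Bnip3, a receptor for mitophagy, was at 257 ± 16.2 CPM and 226 ± 10.48 CPM (SD, n = 5 each), and its genotypes did not overlap, with AHRfl mice at 240.2 CPM or more and AHRmko mice at 238 CPM or less, where 0.714% of all genes were separated in this direction. Its log2 fold change was -0.19 ± 0.0638 (SE, edgeR adjusted p = 0.665). Pik3ip1, an inhibitor of PI3-kinase, had a log2 fold change of -0.35, Sesn1, a sestrin that restrains mTORC1, -0.26, and Ccng2, a cyclin of cell cycle arrest, -0.21, and these 3 overlapped between genotypes. Counted in either direction, the 5 became 3 without AHRfl 11, without AHRfl 33 or without AHRmko 22, 3 without the 5 libraries with Xist counts, 4 with the slow-fibre score in the model, and 1 without the 4 libraries of highest slow-fibre signal, which leaves 3 against 3 mice. In those 6 mice the log2 fold changes were -0.67 for Cdkn1a, -0.16 for Bnip3, -0.28 for Pik3ip1, -0.09 for Sesn1 and -0.13 for Ccng2. These genes were measured in the same 10 mice and are not independent of each other, and the list as a whole was given no test.

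Of 25 other genes of the ubiquitin system, among them further ligases, conjugating enzymes and the polyubiquitin gene Ubb, 0 passed an adjusted p of 0.05 in either tool. The median log2 fold change was -0.02, with 12 above 0 and 13 below. This median turned to 0.02 without AHRfl 12 and with the slow-fibre score in the model. It was -0.09 without the 5 libraries with Xist counts. Ubr2, an N-end rule ligase linked to muscle wasting, was the 1 gene of the 25 with an unadjusted p under 0.05 (0.0040), where 6.61% of all genes had one. Ubr2 was at 72.4 ± 4.2 CPM in AHRfl and 84.0 ± 4.7 CPM (SD, n = 5 each) in AHRmko muscle. Its genotypes did not overlap, and its log2 fold change was 0.22 ± 0.062 (SE, 95% interval 0.08 to 0.35), with adjusted p = 0.606 in edgeR and 0.159 in DESeq2. Of all genes, 0.686% were separated in this direction. The count of 1 was 2 without AHRfl 13, without AHRfl 33 or without AHRmko 19, 4 without AHRmko 34, and 3 with library size alone in place of TMM.

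For each of the 10 genes, the 3 genes with the most similar course over the 10 mice were taken by Pearson's r of log2 CPM among 12131 genes with a mean of at least 1 CPM. As the highest of 12131 values these r are large by choice, and they are given without a test. Trim54 was followed most closely by Ubb, the polyubiquitin gene (r = 0.99), then Strap and Borcs6 (both above 0.97). Eif4ebp1 was followed by Gas5, a noncoding host of small nucleolar RNAs (r = 0.98), and by Ebna1bp2, a factor of ribosome assembly, and Cd63. Foxo3 was followed by Rnf111, a ubiquitin ligase of TGF-β signalling (r = 0.96), Ppp1r1a and Gm17056, and Foxo4 by Cnot1, the scaffold of the CCR4-NOT deadenylase (r = 0.95), Mre11a and Kctd3. The nearest genes were Zfp189, Cnksr3 and Ube2j1 for Foxo1 (r = 0.94 for the first), Aplp2, Alg8 and Adamts1 for Trim55 (r = 0.94 for the first, and 0.84 after each genotype's mean was subtracted), and Ints3, Ptpn1, a phosphatase of the insulin receptor, and St7l for Fbxo40 (r = 0.94 for the first). For Trim63 they were Polr2c, Pin4 and Wdr33 (r = 0.92 for the first), for Fbxo30 Agap1, Rara and Afg3l2 (r = 0.93 for the first), and for Fbxo32 Hyou1, a chaperone of the endoplasmic reticulum, Mlx and Elavl1 (r = 0.90 for the first). None of the 30 nearest genes was 1 of the 10 genes themselves, which was likely in advance with 12131 genes compared and says nothing on whether the 10 move together.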

How the data were processed

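RNA of the gastrocnemius was sequenced in 5 AHRfl and 5 AHRmko male mice, all exposed to smoke. Per the labels and methods of the authors, paired-end reads were trimmed (Trimmomatic 0.36), aligned to GRCm38 (STAR 2.5.2b) and counted on exons (featureCounts). They deposited raw counts per Ensembl gene, not normalised and not pooled. Strandedness and the Ensembl release are not given in the sources used here, and without strand, reads of overlapping genes on opposite strands cannot be told apart. The study calls AHRfl mice littermates of AHRmko mice, but no source used here assigns mice to litters or cages.

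GENCODE M21 (GRCm38) gave symbols, positions and exon lengths for 49056 of the 49315 identifiers. In R 4.3.3, counts were filtered by filterByExpr of edgeR 4.0.16 (minimum count 10, minimum total 15), normalised by TMM and tested by the robust quasi-likelihood method, with p-values adjusted after Benjamini and Hochberg over 14714 genes. Log2 CPM used a prior count of 2. Each of the 10 genes also had a two-sided exact permutation test (252 assignments), and correlations used 100000 permutations. The fits were tested on simulated data, the outcome is not given here, and no result rests on it. Alternatives were DESeq2 1.42.0, limma-voom (limma 3.58.1), other scaling and filters, covariates and leaving out mice. Leaving out the libraries with at least 10 Xist counts or the 4 of highest slow-fibre score, the relations to score and TMM factor, the spread with each mouse left out, and, apart from DESeq2, every alternative for the counts of list genes with an unadjusted p under 0.05, were added after seeing the data. Promoters came from RefSeq. The members, lists and tests were chosen with earlier results of these data known. Besides the 10 genes, the genes named are up to 6 per list with an unadjusted p under 0.05 and the 3 nearest patterns of each gene, with Ahr and Esr1 as label checks. Depth was 30393035 to 37954388 counts per mouse.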

Additional observations from a re-analysis of the deposited data

Results flagged for a closer look

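Each of the 10 genes was examined in each genotype for a mouse that stood apart from the other 4. Of 20 such groups 1 exceeded Dixon's critical value of 0.71, and chance alone gives about 1 in 20. In Trim55, AHRfl 11 was the lowest AHRfl mouse, and its gap to the next mouse was 0.847 of the range of the group. AHRfl 11 had 53.2 CPM of Trim55, and the other 4 AHRfl mice had 62.2 to 64.0 CPM. Without this mouse the log2 fold change of Trim55 was 0.21. Leaving out the lowest AHRfl mouse could not make the genotypes overlap, so their separation without it is no check. AHRfl 11 is among the 5 libraries with Xist counts (71 counts), and any part of this in its Trim55 level was not tested.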

How the results depend on the processing

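No paired analysis was possible because the 2 genotypes share no animal number and no source assigns the littermates to litters. Over 21 alternatives, 0 of the 10 genes had an adjusted p under 0.05 in any. The number of genes called among all was 1, and it was 21 with the DESeq2 Wald test, 5 with no filter beyond 1 count in all, 2 with the slow-fibre score in the model, 0 without the 4 libraries of highest slow-fibre score, and between 1 and 6 with each mouse left out (6 without AHRmko 34). The signs of Trim63, Trim55, Fbxo40, Foxo3, Foxo4 and Eif4ebp1 held in all 21. Log2 fold changes with each mouse left out ran from -0.36 to 0.0323 for Fbxo32 (without AHRfl 12), from -0.11 to 0.00333 for Trim54 (without AHRfl 12) and from -0.34 to 0.0358 for Foxo1 (without AHRmko 19). Trim54 was at 0.000833 with the slow-fibre score in the model, Foxo1 at 0.0048 without the 4 libraries of highest slow-fibre score, and Fbxo30 at 0.0254 without the 5 libraries with Xist counts. The cause was not tested, and these last 2 settings leave 3 against 3 and 2 against 3 mice.

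Genes with an unadjusted p under 0.05 numbered 2 of the insulin, AKT and mTOR list, 5 with the slow-fibre score in the model, 0 without the 5 libraries with Xist counts and 1 to 4 with each mouse left out. In the FOXO target list they numbered 5, 3 without the Xist libraries, 1 without the 4 slow-fibre libraries and 3 to 5 with each mouse left out. In the ubiquitin list they numbered 1, 2 with limma-voom, 3 with library size alone, 2 with no filter, 2 with the slow-fibre score, 3 with Xist presence in the model and 1 to 4 with each mouse left out. Pairs of genes correlated after adjustment for r numbered 0, and 0 to 1 with each mouse left out (1 without AHRmko 9). Highest over lowest mouse in Fbxo32 was 2.65, and 1.54 (without AHRfl 12) to 2.65 with each mouse left out. The median log2 fold change of the ubiquitin list ran from -0.04 to 0.02 with each mouse left out. The least abundant of the 10 genes, Fbxo30, had at least 405 counts in every mouse, and neither depth nor the number of mice was varied beyond leaving mice out.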
